A study of Mus musculus with 4 samples.

Results

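Clu, Trf, Cst9, Cst12, Aard and Mro are 6 genes of Sertoli cells, taken by name as abundant Sertoli products, and each was 1 row among the 55820 loci of the expression table. They encode clusterin, transferrin, 2 cystatins, the alanine and arginine rich protein AARD and the protein maestro. RNA sequencing was performed on whole testes of male C57BL/6J mice at P10 (postnatal day 10), with 2 control and 2 Mps1sKO libraries. In Mps1sKO mice, *Mps1* (gene symbol *Ttk*) was deleted in germ cells by *Stra8*-Cre, a recombinase expressed from early spermatogonia onwards, so the Sertoli cells were not the targeted cells. The control animals are labelled only as control, with no further genotype, and it is not stated whether 1 library was made from 1 mouse. The comparison asks whether the RNA of these Sertoli genes differed in the testis when the germ cells lacked *Mps1*.

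Sertoli cells are the somatic nurse cells of the seminiferous tubule. They enclose the germ cells, seal them behind the blood-testis barrier and secrete the fluid and carrier proteins on which the germ cells depend. Transferrin is the classical example of a carrier that delivers iron to the germ cells, and clusterin is a secreted chaperone that is long known from seminiferous fluid. Many cystatins inhibit cysteine proteases such as cathepsins. *Cst9* (testatin) and *Mro* are known from the early differentiation of the testis, and maestro has been described as a nucleolar protein, not a secreted one. What AARD does is less well known.

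The libraries held between 23311689 and 28607746 counts, and mitochondrial genes took between 2.52% and 3.14% of them. *Ttk* itself had 750 and 940 counts in the controls against 302 and 326 in the Mps1sKO libraries, which is 41.7% of control after normalization (log2 fold change −1.26 ± 0.129, standard error, with an adjusted p of 0.0461 by the quasi-likelihood test of edgeR). Levels are given below as normalized counts (CPM) where libraries are compared, and as deposited FPKM, which are divided by gene length, where genes are compared. The CPM are scaled to the library total over the tested loci, adjusted by the TMM normalization factor of edgeR. All fold changes are Mps1sKO relative to control. No batch is given in the labels. An exact permutation test of 2 libraries against 2 cannot give a p below 0.333, so the p-values come from edgeR's two-sided quasi-likelihood test fitted on all 20561 loci that passed its filter on low counts, a filter that all 6 genes passed. These p-values measure the spread between these libraries. In bulk tissue, fewer cells of a type and less RNA per cell cannot be told apart.

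By edgeR, DESeq2 and limma-voom alike, 0 of the 6 genes reached an adjusted p below 0.05, where edgeR called 0 of all tested loci higher (0%) and 6 lower (0.0292%). At an unadjusted p below 0.05, 3 genes were higher in Mps1sKO testes, *Aard*, *Cst9* and *Cst12*, against a background of 3.92% of all tested loci, and 0 were lower, against 5.37%. The 3 fell to 0 when libraries were scaled to 5 Sertoli genes, where 65 of all tested loci were higher in place of 807. With the replicate number as a block they fell to 1 (*Cst9*), and 353 of all tested loci were higher. Both Mps1sKO libraries lay above both control libraries for 4 of the 6 genes, *Aard*, *Cst9*, *Cst12* and *Mro*, against 20.3% of all tested loci, and below them for 0, against 21.1%. The fitted log2 fold change was above 0 for 5 of 6 genes (4 of 6, without *Mro*, when libraries were scaled to 5 Sertoli genes), where 50.1% of all loci had such a value, and the median over the 6 genes was 0.25, beside 0.00027 over all tested loci. The 6 genes together took 0.568% and 0.612% of the counts of the control libraries and 0.735% and 0.667% of those of the Mps1sKO libraries.

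**Figure D1:**
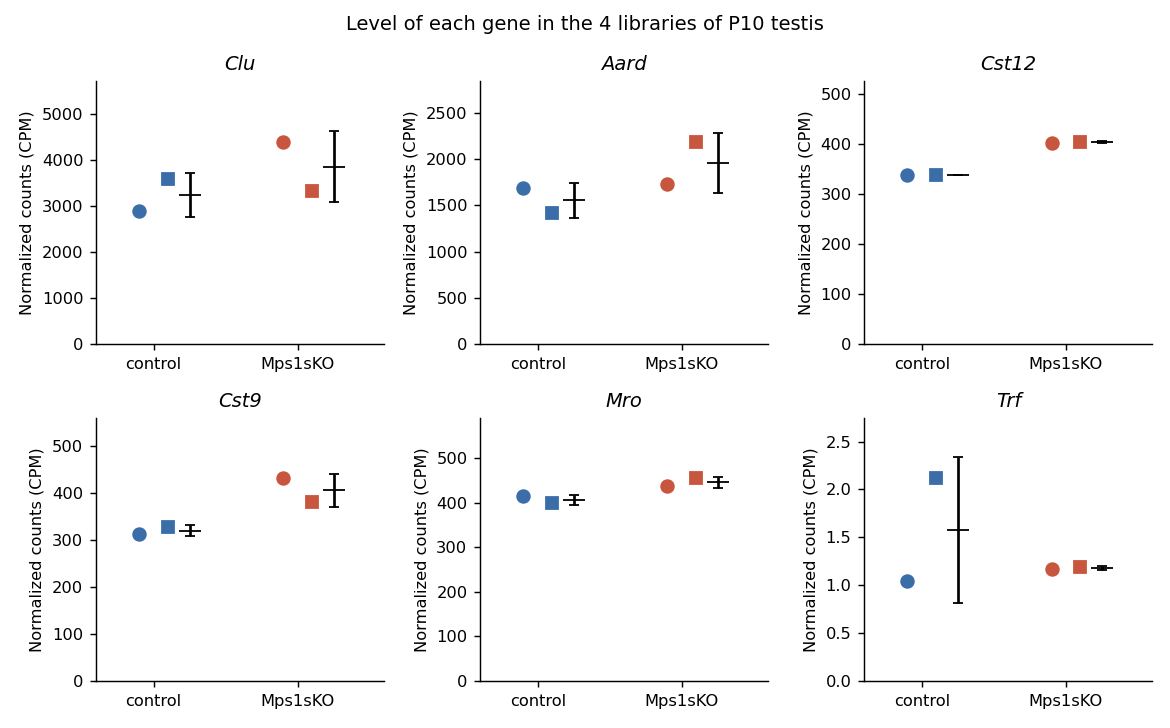
Normalized counts (CPM, from 0) of each gene in the 4 libraries, with control in blue and Mps1sKO in red, circles for replicate 1 and squares for replicate 2, and the mean with SD (n = 2) as black bars beside the points. The groups are apart for *Cst12*, *Cst9*, *Mro* and *Aard*, whereas those of *Clu* and *Trf* overlap, and *Trf* lies near 1 to 2 CPM on an axis that ends below 3 CPM.

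Per length, the genes lay at different levels in the P10 testis. *Aard* (1145 ± 138 FPKM in control testes, SD, n = 2) and *Clu* (937 ± 142 FPKM, SD, n = 2) were the highest, *Cst12* (512 ± 1.38 FPKM, SD, n = 2) and *Cst9* (462 ± 17.6 FPKM, SD, n = 2) followed, and *Mro* was lower at 91.0 ± 2.29 FPKM (SD, n = 2). *Trf* stood apart from all of them at 0.472 ± 0.228 FPKM (SD, n = 2). Over all 4 libraries, *Aard* ranked 9 and *Clu* 11 among 22028 protein-coding genes by mean FPKM, *Cst12* ranked 23 and *Cst9* 27, *Mro* ranked 325 and *Trf* 13812. By deposited FPKM, the description as abundant products held for 5 of the genes in these libraries and not for *Trf*. Of the exonic bases of *Trf*, 63.5% are shared with another annotated gene, described below. The part of this overlap in its low FPKM and rank was not tested. Neighbours in this order were close within 2 of the pairs. The FPKM of *Aard* was 1.49 and 1.01 times that of *Clu* in the control libraries and 1.00 and 1.68 times in the Mps1sKO libraries, so in 1 library of each genotype they were level. The FPKM of *Cst9* was 0.879 and 0.924 times that of *Cst12* in the control libraries and 1.02 and 0.894 times in the Mps1sKO libraries, so their order turned in 1 library. The other neighbours did not overlap in any library, as the lowest *Clu* value, 837 FPKM, was above the highest *Cst12* value, 617 FPKM, and the highest *Mro* value, 102 FPKM, was below the lowest *Cst9* value, 449 FPKM.

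*Cst9* and *Cst12* encode secreted proteins of the cystatin family and lie in the same gene cluster on chromosome 2. *Cst12* (ENSMUSG00000027443) lies at chr2:148789361-148793546 and *Cst9* (ENSMUSG00000027445) at chr2:148835147-148838738, both on the plus strand of GRCm38 and both with 3 exons. Their transcripts, of 644 and 687 bases, were identical at 378 of 748 aligned positions (50.5%), and the longest identical run was 9 bases. No other gene matched either transcript over 100 bases or more at 95% identity, and no exonic base of either is shared with another annotated gene. As both members belong to the same family and cluster, the 250 bases before their RefSeq starts are shown (for *Cst12*, RefSeq places the start a few bases downstream of the GENCODE start above), from RefSeq on GRCm38.p6, for chr2:148789115-148789364 (*Cst12*) and chr2:148834897-148835146 (*Cst9*), both on the plus strand. Capitals mark the letters GATAA.
Cst12: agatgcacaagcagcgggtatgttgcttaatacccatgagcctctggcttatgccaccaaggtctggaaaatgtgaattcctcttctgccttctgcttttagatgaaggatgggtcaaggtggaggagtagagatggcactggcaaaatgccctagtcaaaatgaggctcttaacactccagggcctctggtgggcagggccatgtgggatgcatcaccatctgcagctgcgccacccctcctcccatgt
Cst9: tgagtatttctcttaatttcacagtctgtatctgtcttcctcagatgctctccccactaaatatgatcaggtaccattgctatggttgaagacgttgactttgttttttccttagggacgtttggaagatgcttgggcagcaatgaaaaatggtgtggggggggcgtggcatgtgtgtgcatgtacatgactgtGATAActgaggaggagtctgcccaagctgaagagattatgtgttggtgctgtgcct
Both strands were searched for AACAAT for the SOX family, AAGGTCA for the nuclear receptor NR5A1, TGTTCT for a steroid receptor half-site and, for the GATA family, GATAA. The only match was 1 GATAA in the *Cst9* window, on the plus strand, with its first base 56 bases before the start. The motif GATAA or its reverse complement occurs in 22.6% of the 32851 windows of this length, AACAAT in 9.42%, AAGGTCA in 4.08% and TGTTCT in 16.1%, and a match of these letters does not show a bound site. The 2 windows differed in base composition, with 52.8% G and C for *Cst12* and 45.6% for *Cst9*. Windows were found for these 2 of the 6 genes.

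*Cst12* had 338 CPM in both control libraries and 402 and 405 CPM in the Mps1sKO libraries. The libraries of 1 genotype were almost level and the genotypes did not overlap. The log2 fold change was 0.26 (standard error 0.0825, 95% interval 0.0638 to 0.447, unadjusted p = 0.0156, adjusted p = 0.497), and it stayed between 0.25 and 0.26 with any 1 library left out. The gap between replicates, 0.0022 between the control libraries and 0.0094 between the Mps1sKO libraries on the log2 scale, was the smallest of the 6 genes. Without control replicate 1 or control replicate 2, its unadjusted p was 0.116 and 0.110.

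For *Cst9*, the control libraries had 311 and 328 CPM and the Mps1sKO libraries 431 and 380 CPM. Again both Mps1sKO values were above both control values, although the Mps1sKO libraries were further from each other than the control libraries. Its log2 fold change, 0.34, was the largest of the 5 positive ones (standard error 0.0964, 95% interval 0.118 to 0.566, unadjusted p = 0.00814, adjusted p = 0.494). Leaving out 1 library gave values from 0.25 to 0.43, with an unadjusted p of 0.0640 without control replicate 1.

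Between these genes lie *Cst8* and *Cst13*, and the cluster from *Cstl1* to *Cst3* spans 125 kb with 9 protein-coding genes, a set chosen after the values were seen. Of its 8 tested genes, 2 were higher at an unadjusted p below 0.05, *Cst12* and *Cst9*, and 0 were lower. *Cst8*, the next gene after *Cst12*, had 519, 403, 379 and 493 counts in control replicates 1 and 2 and Mps1sKO replicates 1 and 2, and the fitted difference was 0.07 on the log2 scale (standard error 0.172, unadjusted p = 0.711). *Cst3*, which encodes cystatin C and lies at the end of the cluster, had 188 and 194 FPKM in the control and 181 and 205 FPKM in the Mps1sKO libraries, so the groups overlapped, and the fitted difference was 0.0070 on the log2 scale (standard error 0.0951, unadjusted p = 0.943). *Cst13* was near the limit of detection, with 4 to 13 counts in a library and a fitted difference of −0.16 on the log2 scale.

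**Figure D2:**
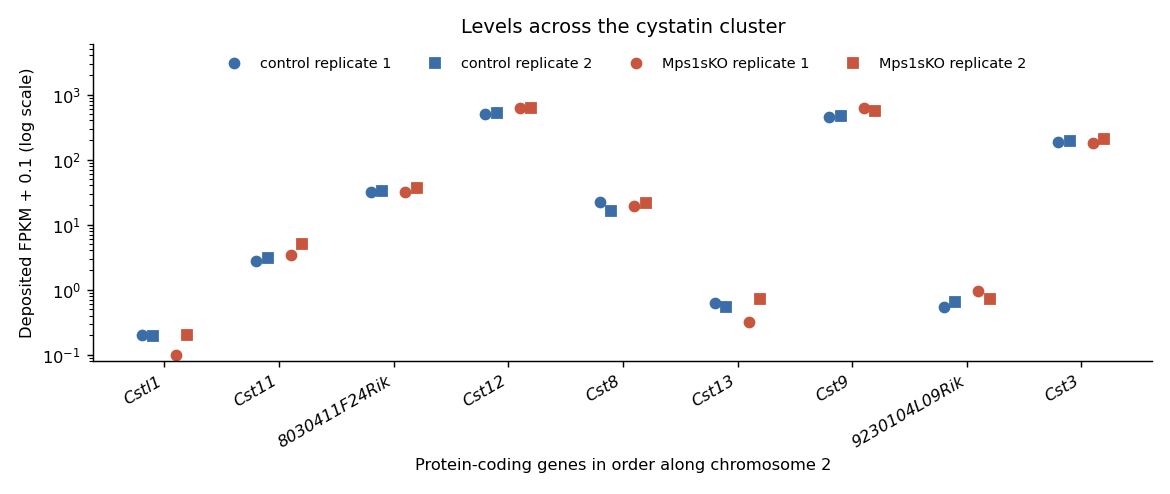
Deposited FPKM plus 0.1, on a log axis, of the 9 protein-coding genes of the cystatin cluster in their order on chromosome 2, with control in blue and Mps1sKO in red, circles for replicate 1 and squares for replicate 2. *Cst12* and *Cst9* lie near 449 to 624 FPKM, *Cst3* near 181 to 205 FPKM, and *Cst8* and *Cst13* between them are at 22.4 FPKM or less in every library.

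*Aard* (ENSMUSG00000068522) lies at chr15:52040107-52045722 on the plus strand, with 2 exons. It had 1690 and 1421 CPM in the controls against 1728 and 2186 CPM in the Mps1sKO libraries. Both Mps1sKO values were above both control values, but Mps1sKO replicate 1 only just exceeded control replicate 1. The log2 fold change of *Aard* was 0.33 (standard error 0.135, 95% interval 0.0171 to 0.646, unadjusted p = 0.0412, adjusted p = 0.527). Without Mps1sKO replicate 2 it was 0.15 (unadjusted p = 0.196), and without control replicate 2 it was 0.21 (unadjusted p = 0.176). The difference between the Mps1sKO libraries, 0.34 on the log2 scale, was as large as the fitted genotype difference.

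*Clu* (ENSMUSG00000022037), at chr14:65968483-65981547 on the plus strand with up to 9 exons in a transcript, had more counts than any other of the 6 genes. The control libraries had 2900 and 3586 CPM and the Mps1sKO libraries 4399 and 3319 CPM. Control replicate 2 lay above Mps1sKO replicate 2, so the groups overlapped. The genotype difference was 0.25 on the log2 scale (standard error 0.153, 95% interval −0.105 to 0.607, unadjusted p = 0.142, adjusted p = 0.628), smaller in size than the differences within a genotype, which were 0.31 for control replicate 2 relative to replicate 1 and −0.41 for Mps1sKO replicate 2 relative to replicate 1. Without Mps1sKO replicate 1 it was 0.034, and without Mps1sKO replicate 2 it was 0.44 (unadjusted p = 0.00244). The interval leaves a decrease of 0.105 and an increase of 0.607 on the log2 scale both possible.

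The maestro gene *Mro* (ENSMUSG00000064036) lies at chr18:73859385-73881333 on the plus strand. Its control libraries had 414 and 399 CPM and its Mps1sKO libraries 437 and 454 CPM. The groups did not overlap, but they were close together. The log2 fold change was 0.13 (standard error 0.0847, 95% interval −0.0642 to 0.329, unadjusted p = 0.158, adjusted p = 0.642), and it turned to −0.098 with libraries scaled to 5 Sertoli genes. Of the related *Mroh* genes, which share the HEAT-repeat family with maestro, 6 of 10 were tested. At an unadjusted p below 0.05, 0 were higher and 0 lower, against 3.92% and 5.37% of all tested loci. Their median log2 fold change was −0.11. The most abundant, *Mroh1*, had 62.2 and 59.5 CPM in the controls against 55.5 and 53.7 CPM in the Mps1sKO libraries, with a log2 fold change of −0.16 (unadjusted p = 0.121).

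*Trf* (ENSMUSG00000032554) lies at chr9:103204001-103230444 on the minus strand. It had only 28 and 61 counts in the controls against 27 and 32 in the Mps1sKO libraries, which is 1.04, 2.11, 1.17 and 1.19 CPM. Control replicate 2 was above the other 3 libraries, which lay close together, and the groups overlapped. The log2 fold change was −0.42 (standard error 0.373, 95% interval −1.29 to 0.443, unadjusted p = 0.290, adjusted p = 0.746). Without control replicate 2 it turned to 0.18, and without control replicate 1 it was −0.84 (unadjusted p = 0.0305), so its direction rests on 1 library. Adipocyte markers did not move one way in that library. *Fabp4* was highest there (129 counts, beside 28 in control replicate 1 and 15 and 12 in the Mps1sKO libraries). So were *Adipoq* (23, beside 2, 1 and 7), *Cfd* (16, beside 1, 0 and 0) and *Cidec* (6, beside 4, 1 and 4). *Adipoq*, *Cfd* and *Cidec* were named after their values were seen. *Plin1*, the most abundant of the list, was lowest there (344 counts, beside 505 in control replicate 1 and 514 and 644 in the Mps1sKO libraries). These 2 tested genes of the 6 were called in opposite directions at an unadjusted p below 0.05, *Fabp4* lower (log2 fold change −2.34, unadjusted p = 0.00933) and *Plin1* higher (0.59, unadjusted p = 0.0197). The summed level of the list was 20.1 and 18.0 CPM in control replicates 1 and 2 and 22.9 and 24.9 CPM in the Mps1sKO libraries. *Plin1* made up most of this sum, with 18.8 and 11.9 CPM in control replicates 1 and 2 and 22.2 and 24.0 CPM in the Mps1sKO libraries. The sum therefore mainly follows *Plin1*, and *Lep* had 0 counts in every library. The part of these cells in the *Trf* value was not tested.

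Most of *Trf* is also annotated as part of another gene. Of its 3320 exonic bases, 2108 (63.5%) also belong to Gm20425, a gene model on the same strand at chr9:103190208-103230307 that joins exons of *Trf* with exons of the downstream gene *Srprb*. Of the 19 merged exons of *Trf*, 12 lie wholly within exons of Gm20425 and 3 share no base with it. Gm20425 itself, of whose 3028 exonic bases 2996 are shared and 32 are not, had 0 counts in all 4 libraries, which allows up to 3 counts in each. *Srprb*, with 888 of 4287 exonic bases shared, had 1033 and 960 counts in the control and 745 and 967 in the Mps1sKO libraries. Per kb of bases that no other gene shares, *Trf* had 23.1, 50.3, 22.3 and 26.4 counts and *Srprb* 304, 282, 219 and 284. The setting that the authors used for reads that fall on more than 1 gene is not given in the sources used here, and the part of the shared exons in the low count of *Trf* was not tested. None of the other 5 genes shares an exonic base with another annotated gene.

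**Figure D3:**
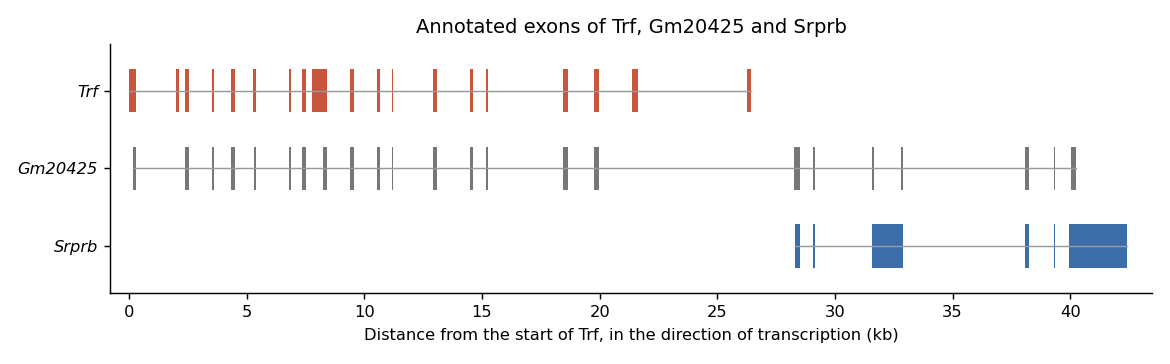
Exons annotated in GENCODE M21 for *Trf*, Gm20425 and *Srprb*, by distance in kb from the start of *Trf* in the direction of transcription. Gm20425 has exons at 12 of the 19 *Trf* exon positions in full, together with exons of *Srprb*, and it had 0 counts while *Trf* had 27 to 61.

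Transferrin works with receptors, ferritins and iron transporters. Of 15 such genes for iron uptake, storage and export, all tested, 1 was higher at an unadjusted p below 0.05 (*Slc39a14*, an importer, log2 fold change 0.25, unadjusted p = 0.0382) and 1 was lower (*Tfr2*, the second transferrin receptor, −0.55, unadjusted p = 0.0113), with a median of 0.09 beside 0.00027 over all loci. These single genes were named after their values were seen. Of all tested loci, 3.92% were higher and 5.37% lower at an unadjusted p below 0.05, so 1 of 15 each way is near these shares. *Fth1*, the ferritin heavy chain and the most abundant of the list, had 297 and 252 CPM in the controls against 278 and 341 CPM in the Mps1sKO libraries, and *Ireb2*, an iron-responsive RNA-binding protein, had 237 and 242 CPM in the controls against 263 and 234 CPM in the Mps1sKO libraries. Both overlapped between the genotypes. *Tfrc*, the main receptor through which cells take up transferrin, had 36.8 to 64.8 times the FPKM of *Trf* in every library. The exonic bases shared with other annotated genes were 63.5% for *Trf* and 0 for *Tfrc*, and their part in this ratio was not tested.

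For clusterin, 3 of 4 receptor genes were tested. At an unadjusted p below 0.05, 1 was higher, against 3.92% of all tested loci, and 0 were lower, against 5.37%. The higher gene was *Lrp8* (111 and 113 CPM in control, 131 and 126 CPM in Mps1sKO testes, log2 fold change 0.20, unadjusted p = 0.0459). *Vldlr* overlapped between the genotypes, with a log2 fold change of −0.07 (unadjusted p = 0.688). Clusterin also binds the terminal complement complex. Of the 7 tested genes of that list of 10, 0 were higher and 0 lower at an unadjusted p below 0.05, against the same shares of all loci. The median log2 fold change was −0.0047. *Cd59a*, a membrane inhibitor of the same complex, was the most abundant of them with 27.9 to 31.9 CPM, and its groups overlapped.

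Proteases that members of the cystatin family can inhibit were compared in the same way. Whether the products of *Cst9* and *Cst12* inhibit any of them was not tested. Of 11 cathepsin and legumain genes, 1 was higher at an unadjusted p below 0.05, against 3.92% of all tested loci. Lower were 0, against 5.37%, and the median log2 fold change was 0.0063. That gene was *Ctsl*, the most abundant, with 1183 and 1014 CPM in control and 1387 and 1487 CPM in Mps1sKO testes (log2 fold change 0.39, standard error 0.103, unadjusted p = 0.00593, adjusted p = 0.494), and its groups did not overlap. Of the exonic bases of *Ctsl*, 26.8% are shared with other annotated genes. *Ctsb* had 313 and 317 CPM in control and 328 and 312 CPM in Mps1sKO testes and overlapped (log2 fold change 0.02). The other cystatins outside the 6 genes gave 6 tested genes of 15, with 0 higher and 0 lower and a median of 0.06.

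Among 12 tested genes of 13 for other secreted and carrier proteins of Sertoli cells, 1 was higher and 1 lower at an unadjusted p below 0.05. Of all tested loci, 3.92% were higher and 5.37% lower. The median log2 fold change of the list was −0.00030, beside 0.25 for the 6 genes. The higher gene was *Shbg*, which encodes the androgen-binding protein, with 194 and 170 CPM in control and 227 and 228 CPM in Mps1sKO testes (log2 fold change 0.32, unadjusted p = 0.0110). The lower gene was *Rbp4*, a retinol carrier, with 16.7 and 21.7 CPM in control and 13.3 and 11.7 CPM in Mps1sKO testes (log2 fold change −0.62, unadjusted p = 0.00544, named after its value was seen). The most abundant, the matrix protein gene *Sparc*, had 1889 and 2081 CPM in control and 2064 and 2151 CPM in Mps1sKO testes, and *Psap*, the saposin precursor, had 753 and 785 CPM in control and 834 and 786 CPM in Mps1sKO testes. Neither passed the test (unadjusted p = 0.367 and 0.407).

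Of the marker lists of cell types, 0 genes passed an adjusted p below 0.05 with edgeR. All 11 tested Sertoli markers of 12 had a fitted log2 fold change above 0, beside 50.1% of all tested loci, with a median of 0.37. At an unadjusted p below 0.05, 3 were higher, against 3.92% of all tested loci. These were *Inha* (0.38), *Gata4* (0.38) and *Dhh* (0.42), the last 2 named after their values were seen. *Cldn11* (0.08), *Wt1* (0.18) and *Inhbb* (0.37), next to *Inha* the most abundant, did not pass (edgeR unadjusted p = 0.405, 0.141 and 0.0792). Of the exonic bases of *Dhh*, 25.2% are shared with other annotated genes. The summed level of the Sertoli markers was 2362 and 2034 CPM in the controls against 2574 and 2869 CPM in the Mps1sKO libraries. *Rhox5*, a Sertoli and epididymal homeobox gene, had 1, 0, 0 and 0 counts and was not tested. Of 10 germ cell markers, 0 were higher and 9 lower at an unadjusted p below 0.05, against 3.92% and 5.37% of all tested loci. The median log2 fold change of the germ cell markers was −0.45. Their summed level was 1359 and 1660 CPM in the controls against 1247 and 971 CPM in the Mps1sKO libraries, and none was at 0. In the lists of Leydig, peritubular myoid, macrophage, endothelial and red blood cell markers, 0 genes were higher and 0 lower at that p, with medians of 0.18, −0.12, −0.03, 0.10 and 0.08. Of the epididymis and rete testis markers, 2 of 7 were tested, 1 of which was lower, *Krt19* (log2 fold change −0.77, unadjusted p = 0.0482), and *Lcn9* had 0 counts in every library.

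Set against other Sertoli cell genes, 5 of the 6 genes overlapped between the genotypes. The share of all tested loci that overlap on this scale was not computed. The 5 genes used, *Sox9*, *Wt1*, *Gata4*, *Cldn11* and *Fshr*, had fitted log2 fold changes of 0.26, 0.18, 0.38, 0.08 and 0.24. The median over the tested Sertoli markers was 0.37. The geometric mean of the 5 genes was 168 and 151 CPM in the controls against 180 and 193 CPM in the Mps1sKO libraries. Divided by this mean, *Clu* was 17.3 and 23.8 in the control and 24.4 and 17.2 in the Mps1sKO libraries, *Cst12* was 2.02 and 2.24 against 2.23 and 2.10, and *Cst9* was 1.86 and 2.17 against 2.39 and 1.97. The groups of these genes overlapped on this scale, as did those of *Aard*, at 10.1 and 9.41 against 9.59 and 11.3, and of *Trf*. *Mro* was 2.47 and 2.64 in the control and 2.42 and 2.35 in the Mps1sKO libraries, so that here both Mps1sKO values lay below both control values. With the libraries scaled to these 5 genes in the same edgeR test, 0 of the 6 genes had an unadjusted p below 0.05, the fitted log2 fold changes were 0.02 for *Clu*, 0.02 for *Cst12*, 0.11 for *Cst9*, 0.10 for *Aard*, −0.67 for *Trf* and −0.098 for *Mro*, and the median of all tested loci moved to −0.23, with 65 loci higher and 4335 lower at an unadjusted p below 0.05 in place of 807 and 1105. This scaling moves all loci alike, so the values relative to that median are close to those of the TMM fit by construction.

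**Figure D4:**
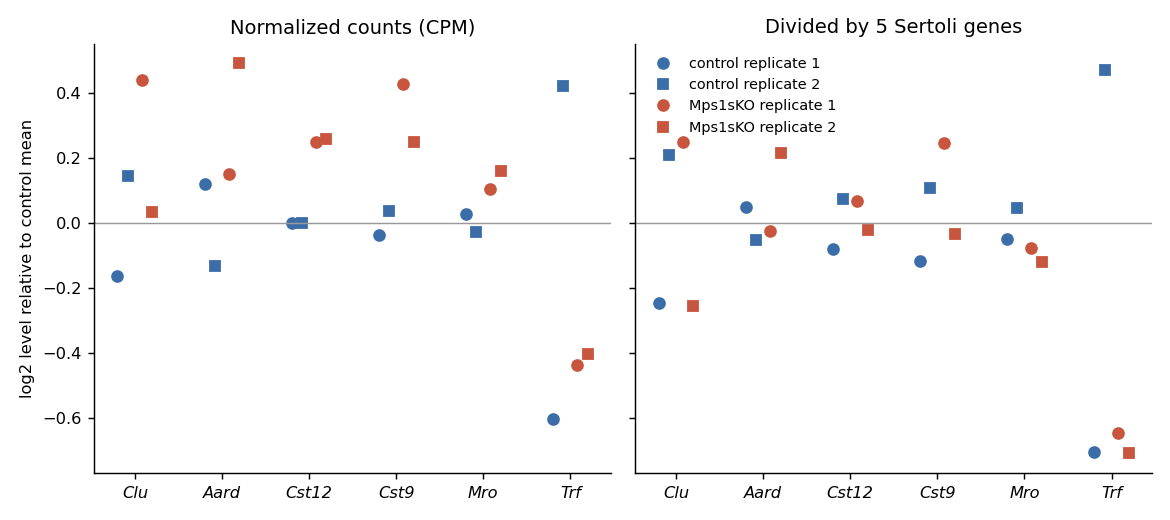
Level of each gene in each library on the log2 scale relative to the control mean, as CPM (left) and after division by the geometric mean of 5 Sertoli genes (right), with control in blue and Mps1sKO in red, circles for replicate 1 and squares for replicate 2. On the left both Mps1sKO points are above both control points for *Aard*, *Cst12*, *Cst9* and *Mro*, and on the right the groups overlap for 5 of the 6 genes and are reversed for *Mro*.

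**Figure D5:**
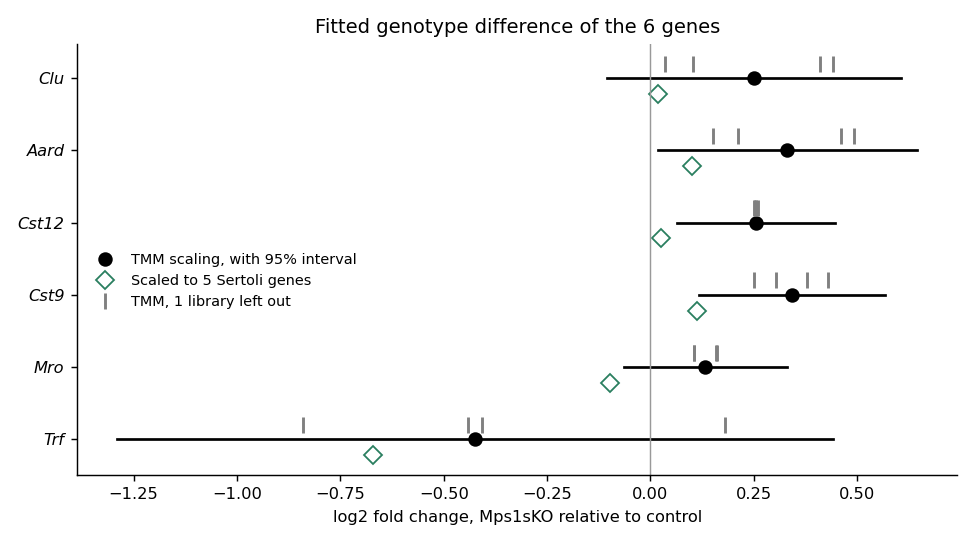
Fitted log2 fold change of each gene, Mps1sKO relative to control, with its 95% interval (black, TMM scaling), the value under scaling to 5 Sertoli genes (open diamonds) and the values with 1 library left out (grey ticks). The intervals of *Cst9*, *Cst12* and *Aard* lie above 0 without adjustment for the number of loci, and that of *Trf* runs from −1.29 to 0.443.

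The 6 genes were not all highest in the same library. Centred on its own mean, each gene lay between 0.161 (*Cst12*) and 0.773 (*Trf*) from the average profile of the 6, as a Euclidean distance in log2 CPM over 4 libraries. *Clu* was highest in Mps1sKO replicate 1, *Aard* in Mps1sKO replicate 2 and *Trf* in control replicate 2. Of 20301 other annotated genes, the 5 nearest to the average profile were *Arg1* (0.0117), *Pgap2* (0.0145), *Gab2* (0.0226), *Galnt7* (0.0309) and *Amacr* (0.0309). Their mean levels were 0.967, 61.5, 81.5, 56.9 and 15.1 CPM, so the first place of *Arg1* rests on a low level. The average profile rests partly on *Trf*, whose value in control replicate 2 was 0.68 above its own mean on the log2 scale.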

How the data were processed

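RNA was measured in 4 libraries of whole P10 testis, grouped by the genotype in their labels. Per the submitters' processing notes, the authors used HISAT2 2.0.5, featureCounts, DESeq2 1.16.1 and mm10. The authors deposited raw counts and FPKM values for 55820 loci, 284 of them without an annotated gene. The strandedness is not given in the sources used here. Identifiers and coordinates were checked against GENCODE M21, where all 55450 annotated genes found had the same position. No sample column was left unused (0).

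Counts were tested with edgeR 4.0.16 (limma 3.58.1, R 4.3.3): filterByExpr, which kept 20561 loci, TMM normalization and the two-sided quasi-likelihood test on genotype, with Benjamini-Hochberg adjustment over all tested loci. FPKM were used only between genes. A floor of 3 counts was 0.104 to 0.129 CPM. The script was tested on simulated data. Replicates differed beyond counting error in both genotypes (chi-square per degree of freedom 8.49 and 11.6). Sequences were handled with Biopython 1.88 and BLAST 2.17.0.

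The genes, lists and tests were chosen with earlier results of these data known. The genes planned to be named were the 6, *Ttk*, the 2 to 4 most abundant tested genes of each list with any list gene at an adjusted p below 0.05, and the 5 nearest profiles. For several lists fewer of these genes, or none, are named in the text. Others are said to be chosen after their values were seen. Alternatives were DESeq2 1.42.0, its size factors, library size only, limma-voom, robust dispersion, other filters on low counts, annotated genes only, a replicate block, scaling to Sertoli genes and each library left out.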

Additional observations from a re-analysis of the deposited data

How the results depend on the processing

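Of 90 values of the 6 genes under 15 alternatives, 85 kept their direction and their side of an adjusted p of 0.05, and 2 changed direction. *Mro* turned to −0.098 (adjusted p = 0.666) with libraries scaled to 5 Sertoli genes, a scaling that moves all loci alike and their median to −0.23, and *Trf* to 0.18 without control replicate 2. Past the threshold came *Aard* with no filter on low counts (0.33, adjusted p = 0.0272), where 390 loci passed in place of 6. The correlation of deviations between same-numbered libraries was −0.162. With 2 libraries per genotype, this value cannot show whether the samples were paired. With the replicate number as a block, 1 of the 6 genes, *Cst9*, was higher at an unadjusted p below 0.05 in place of 3. Of all tested loci, 353 were higher there in place of 807. With a crossed pairing, added after seeing the data, *Aard* (0.33, adjusted p = 0.0372) and *Cst9* (0.34, adjusted p = 0.0250) passed, as did 550 of all loci. Over these alternatives the adjusted p ranged from 0.0272 to 1.00 for *Aard* and from 0.0250 to 1.00 for *Cst9*. Scaled to 5 Sertoli genes, 0 of the 6 genes and 65 of all tested loci were higher at an unadjusted p below 0.05. The planned scaling also held *Rhox5*, which is at 0 in 3 libraries, and was not run. Leaving out 1 library assumes that the single remaining library of that genotype varies like the other genotype. It gave log2 fold changes of 0.15 to 0.49 (*Aard*), 0.034 to 0.44 (*Clu*), 0.25 to 0.26 (*Cst12*), 0.25 to 0.43 (*Cst9*), 0.10 to 0.16 (*Mro*) and −0.84 to 0.18 (*Trf*), and 1 to 3 of the 6 genes higher and 0 to 1 lower at an unadjusted p below 0.05. The fewest higher, 1 (*Aard*), and the 1 lower (*Trf*) came without control replicate 1. Of the 112 tested list genes, 8 were higher and 13 lower at that p, with 15 and 21 without a filter, 0 and 31 scaled to Sertoli genes, 24 and 20 in the crossed pairing, and 1 to 18 and 8 to 21 with 1 library left out (1 and 8 without control replicate 2, 17 and 21 without control replicate 1, 18 and 20 without Mps1sKO replicate 1). Over all 20561 tested loci, 807 were higher and 1105 lower at an unadjusted p below 0.05 in the main fit. Without a filter, 1310 and 1693 of 35262 loci were. Scaled to Sertoli genes, 65 and 4335 were, and in the crossed pairing 1877 and 1916. In these settings the list counts moved in the same direction as those of all loci. For the fits with 1 library left out this was not compared. Of the 6 genes, *Trf* had the fewest counts, 27 to 61 in a library.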
